A study of Rattus norvegicus with 36 samples.

Results

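The comparison described here is between rat lung slices that received TGFb together with nintedanib and rat lung slices that received nothing, both at the labelled time 72. It holds 12 of the 36 RNA libraries in the series: 6 with TGFb and the drug, labelled Nint and read as nintedanib from knowledge of the study, and 6 untreated. Members were chosen by sample title alone, and their columns were found by the well code in each description. Another 6 libraries, with TGFb and no drug at 72, is used to tell which changes were already made by TGFb. The labels carry no unit for the time, no dose, and no strain, sex or age of the rats. They also do not say whether the replicates of a group were cut from different animals, so p-values measure the spread between these slices' libraries, which may be technical.

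Precision-cut lung slices are thin sections of living lung that keep epithelium, vessels, airways, fibroblasts and immune cells together in culture. TGFb is a secreted growth factor that binds a pair of receptor kinases, acts through Smad transcription factors, and in lung drives fibroblasts to contract and lay down collagen-rich matrix. Nintedanib blocks the receptor tyrosine kinases for PDGF, FGF and VEGF, which carry growth signals to fibroblasts and endothelium, and it is used to treat pulmonary fibrosis. Comparing drug-treated slices directly with untreated ones gives the net state: which changes remain once growth factor and drug have both acted, and which are found with the drug and not with TGFb alone.

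The deposited tables identify genes by Ensembl ID, and the reference table at hand pairs none of the 15644 tested IDs with a name. The results below are therefore given by ID and by group of genes, the lung markers could not be checked, and no sequence is shown. Each gene was tested with edgeR's quasi-likelihood test, and a gene was called at a Benjamini-Hochberg adjusted p under 0.05 over all genes tested. Levels are normalized counts, meaning counts scaled by TMM (trimmed mean of M values) to the mean library size, and they compare 1 gene between libraries, not 1 gene with another. In whole slices, fewer cells of a type and less RNA per cell cannot be told apart.

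Total counts lay between 19787248 and 31971883 in the 6 libraries with TGFb and nintedanib, between 21288889 and 30499057 in the 6 with TGFb alone and between 18971560 and 26361547 in the 6 untreated libraries. Total count, TMM factor, number of genes detected and the share of counts outside the protein-coding table did not pass a two-sided exact permutation test between the drug group and either other group (lowest p = 0.0844, for the TMM factor against untreated slices; adjusted p = 0.499 over 8 tests). In a principal component analysis of these 18 libraries the first component held 30.3% of the variance. All 6 untreated libraries scored -34.4 or lower on it. The drug libraries scored 6.26 to 33.5 on it, within the range of -0.42 to 37.7 of the libraries with TGFb alone. The second component held 14.6% and did not follow the groups: replicate 5 with nintedanib (-33.2) and replicates 2 and 5 with TGFb alone (-44.7 and -46.3) stood lowest on it. The counts of net genes, of genes that stayed changed, were new or no longer passed the test, and of genes that the drug moved are also given without these 3 libraries.

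Slices with TGFb and nintedanib differed from untreated slices in 4137 of 15644 genes (26.4%). Of these, 1969 were higher (12.6%) and 2168 were lower (13.9%) with TGFb and the drug. The change was at least 2-fold in 397 genes that rose and 641 that fell (6.64% in all), at least 4-fold in 94 and 156, and at least 16-fold in 6 and 10. The middle of the changes was small: the median log2 fold change was 0.42 among genes that rose and -0.64 among genes that fell, beside -0.0024 over all genes tested. Without the 3 libraries that stood low on the second component, 1747 genes rose and 2068 fell. When counts were scaled by library total and nothing else, 1240 rose and 2754 fell, which put the share of higher genes at 31% in place of 47.6%.

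For 1135 genes (7.26%) all 6 drug-treated libraries lay above all 6 untreated ones, and for 1389 (8.88%) all 6 lay below. Among called genes the share without overlap was 53.5% of those that rose and 61.1% of those that fell. The genes that rose held, in sum, 21.8% ± 0.504 of the counts in slices with TGFb and nintedanib, 21.8% ± 0.464 with TGFb alone and 17.1% ± 0.293 in untreated slices (SD, n = 6 each). The genes that fell held 8.61% ± 0.258 with TGFb and nintedanib, 9.33% ± 0.789 with TGFb alone and 13.0% ± 0.791 in untreated slices. These shares describe genes chosen on the same libraries, so no test was made of them.

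Of the 14480 tested genes in the deposited protein-coding table, 1906 rose and 2082 fell (27.5% called), whereas of the 1164 tested genes outside it 63 rose and 86 fell (12.8%). Calls were spread over the whole range of counts. Ranked by mean normalized count and cut into 4 equal sets, the lowest set had 22.3% called, with 345 higher and 529 lower, and the highest set had 32% called, with 637 higher and 615 lower. Complete loss or gain of a transcript was rare: 3 of 32883 genes had no count in any untreated library and at least 1 in every drug-treated one, with at most 18 counts over the 6, and 3 had the reverse pattern, with at most 17.

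The IDs named next moved furthest in each direction among genes that were called, had no overlap between the 2 groups of libraries, and averaged at least 50 normalized counts in the higher group. The rule was met by 964 genes that rose and 1190 that fell, and 2 of each are shown because none can be named. ENSRNOG00000003776 had 48.4 to 95.1 normalized counts with TGFb and nintedanib (median 66.6), against 0 to 2.23 in untreated slices. Its libraries with TGFb alone spanned 37.0 to 123.6, across the whole range of the drug group. The net log2 fold change was 5.52 (SE 0.61, adjusted p = 2.01e-08), and the difference between drug and TGFb alone was 0.07 (SE 0.41, adjusted p = 0.981). ENSRNOG00000011824 had 538 to 1509.7 normalized counts with TGFb and nintedanib (median 1050.2), against 19.8 to 63.0 in untreated slices (median 37.1). Here too the libraries with TGFb alone, at 774.6 to 2679.5, overlapped those with the drug. Its net log2 fold change was 4.68 (SE 0.41, adjusted p = 2.88e-10) and the difference from TGFb alone was -0.15 (SE 0.33, adjusted p = 0.942). Both IDs were high in each of the 12 libraries that received TGFb with or without nintedanib, and near the bottom of the scale in all untreated ones at 72. Untreated slices at time 0 held more, with 1.60 to 68.3 for ENSRNOG00000003776 and 86.2 to 480 for ENSRNOG00000011824. From time 0 to 72 the log2 fold changes in untreated slices were -4.22 and -2.02 (adjusted p = 3.79e-07 and 3.93e-05), where 73.2% of all genes were called.

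ENSRNOG00000011824 also differed between nintedanib and the other drugs of the series. It averaged 1096 ± 347 normalized counts with nintedanib, against 199.6 ± 35.7 with pirfenidone and 442 ± 140.1 with sorafenib, each given with TGFb (SD, n = 6). Nintedanib exceeded pirfenidone by 2.46 on the log2 scale (SE 0.36, adjusted p = 9.48e-07) and sorafenib by 1.31 (SE 0.34, adjusted p = 0.0129). ENSRNOG00000003776 did not pass this test against either drug (adjusted p = 0.551 and 0.0977). Doses are not in the labels, so these are differences between the groups as treated. Over all genes, 54.6% were called between nintedanib and pirfenidone and 11% between nintedanib and sorafenib. Both IDs were chosen for their high nintedanib libraries, which these comparisons share.

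ENSRNOG00000023870 fell to 0.955 to 9.77 normalized counts with TGFb and nintedanib (median 3.11), against 54.7 to 142.4 in untreated slices (median 121.9). With TGFb alone it stood at 0.983 to 7.58, so both groups that received TGFb lay far below every untreated library. The net log2 fold change was -4.72 (SE 0.52, adjusted p = 1.85e-08), with a difference from TGFb alone of 0.05 (SE 0.63, adjusted p = 0.991). ENSRNOG00000015468 had 0.951 to 12.9 normalized counts with TGFb and nintedanib (median 4.84), against 13.2 to 233 in untreated slices (median 101.9). The highest drug library and the lowest untreated library, both replicate 1, almost met. With TGFb alone 4 libraries held 0 to 3.25 and replicates 5 and 6 held 140.6 and 155.3, so that this group fell into a low and a high set. Such scatter was not particular to TGFb alone: untreated slices at time 0 spanned 0 to 215.6. With TGFb and sorafenib the range was 0 to 104, and with TGFb and pirfenidone 28.6 to 245. Relative to untreated slices the log2 fold change was -4.10 (SE 1.24, adjusted p = 0.0132), while TGFb alone against untreated (-1.13, adjusted p = 0.463) and the drug against TGFb alone (-2.97, adjusted p = 0.253) did not pass.

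**Figure D1:**
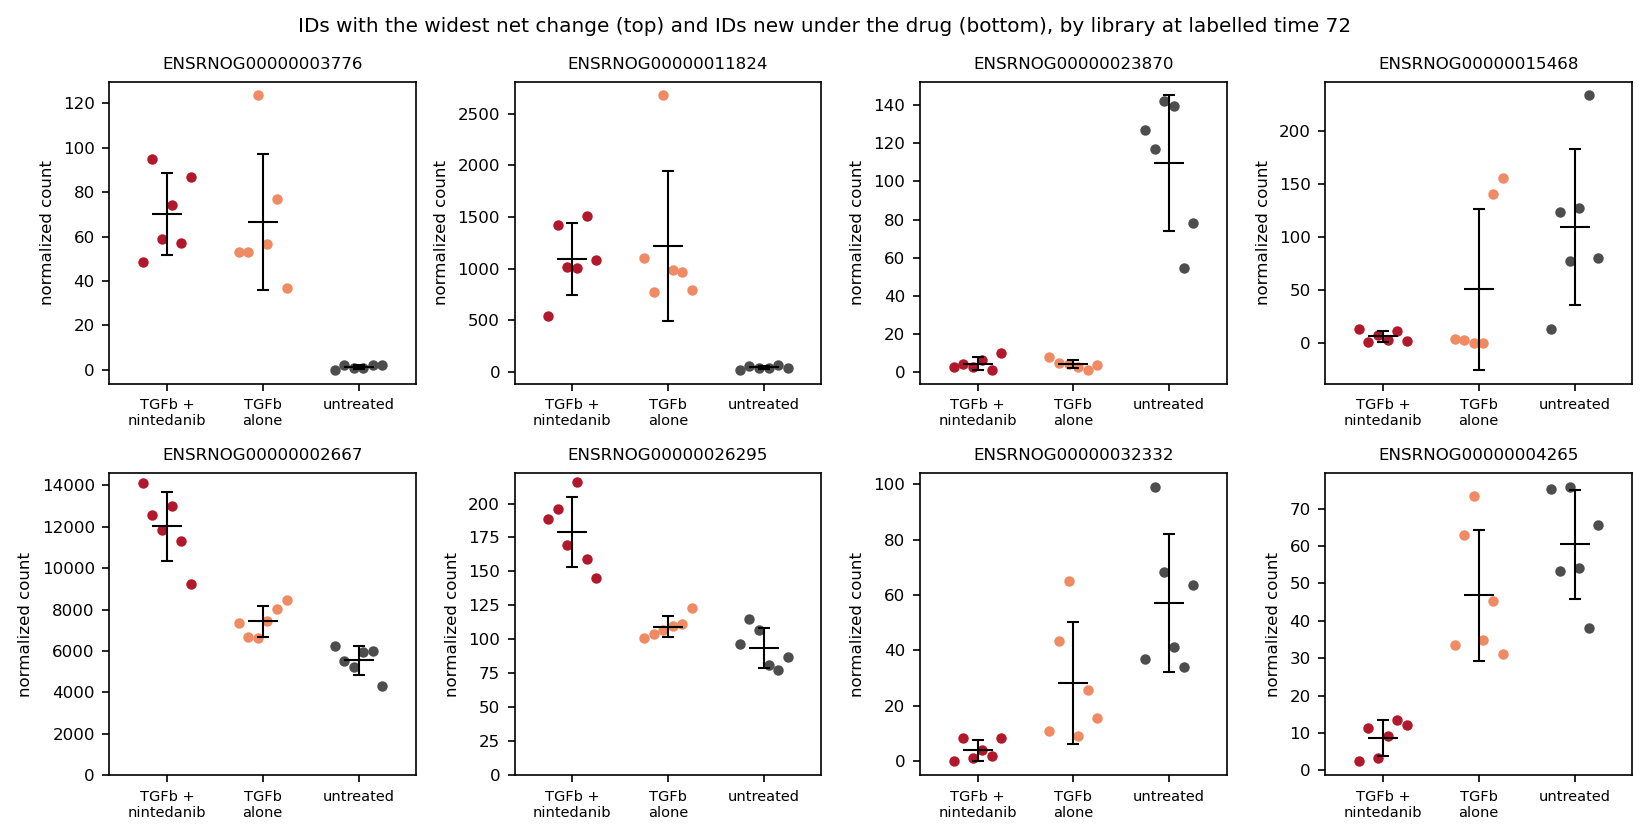
Normalized counts of 8 gene IDs in single libraries (points; n = 6 per group), with the mean and SD (black), for slices with TGFb and nintedanib, with TGFb alone and untreated, on linear axes. In the top row ENSRNOG00000003776 and ENSRNOG00000011824 are high and ENSRNOG00000023870 is low in both groups given TGFb, and in the bottom row the nintedanib group stands apart from both others in ENSRNOG00000002667, ENSRNOG00000026295 and ENSRNOG00000004265, while in ENSRNOG00000032332 it lies below both, close to the lowest libraries with TGFb alone.

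What stayed changed was asked by setting the net comparison beside that of TGFb alone with untreated slices, in which 4130 genes were called (26.4%), 2187 higher (14%) and 1943 lower (12.4%). A gene stayed changed when both comparisons called it in the same direction. This held for 2864 genes, 1505 higher and 1359 lower, which is 69.3% of the TGFb genes and 69.2% of the net genes. Both comparisons use the same 6 untreated libraries, so the lists are not independent and the count is given without a test. Without the 3 libraries named above it was 2605.

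The genes that stayed changed had similar median changes in both states. Among those that rose the median log2 fold change was 0.48 with TGFb and nintedanib and 0.51 with TGFb alone, each against untreated slices. Among those that fell it was -0.72 with the drug and -0.71 with TGFb alone. The rule favours similar sizes, since each gene had to be called the same way in both comparisons, which share the untreated libraries. These medians are therefore a description. The difference itself, the drug against TGFb alone, was called in 3.09% of all genes. Among the 2864 it was not called in 2710 (94.6%), so it was called somewhat more often there than over all genes. In 46 it was called toward the untreated level and in 108 away from it. The 46 cannot include genes moved back whose net call was lost or reversed, since a net call in the TGFb direction was required. A further 117 TGFb genes were called toward the untreated level and had no net call, and they are described below. The counts of 46 and 108 therefore do not compare the directions over all TGFb genes. Of those 108, 95 were genes that TGFb had lowered and the drug lowered further, and 13 were genes raised further.

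The share that stayed changed was larger where the TGFb change was larger. Among genes that TGFb alone raised less than 2-fold, 1090 of 1712 stayed changed (63.7%). Among those raised 2-fold to under 4-fold it was 295 of 350 (84.3%), and among those raised 4-fold or more 120 of 125 (96%). For genes that TGFb lowered, the counts were 885 of 1377 (64.3%), 397 of 485 (81.9%) and 77 of 81 (95.1%). These are shares of calls: a gene with no net call is not shown to have returned to the untreated level. A larger change also passes a threshold more readily, and both comparisons share the untreated libraries, so nothing is read from the trend. In the set raised 4-fold or more the median log2 fold change was 2.27 with TGFb and nintedanib and 2.58 with TGFb alone. In the set lowered 4-fold or more it was -2.33 with the drug and -2.57 with TGFb alone. The sets were cut by the TGFb change itself, so the 2 medians are a description and the gap between them was not tested.

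**Figure D2:**
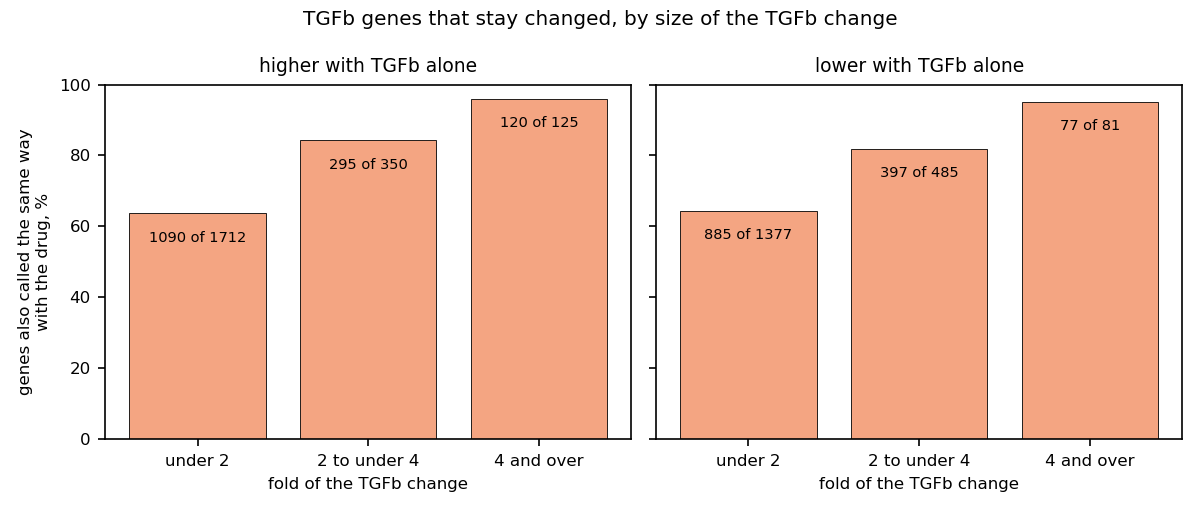
Percentage of genes called for TGFb alone against untreated that were also called in the same direction for TGFb with nintedanib against untreated (bars; the counts are printed in them), by the fold of the TGFb change. The bars run from 63.7% to 96% for genes raised by TGFb and from 64.3% to 95.1% for genes it lowered. Larger changes pass the test more readily, so the trend is a description.

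The remaining 1264 TGFb genes (30.6%) had no net call. In 1147 of them the drug against TGFb alone was not called either. The other 117 (2.83% of the TGFb genes) had a call for the drug against TGFb alone of opposite sign, and no longer passed the test against untreated slices. These were 47 genes raised and 70 lowered by TGFb. The TGFb and drug comparisons share the libraries with TGFb alone, on opposite sides, so an extreme in those libraries favours both calls. The count was not tested. Without the 3 libraries the count was 16, and it was 63 without replicate 2 with TGFb alone and 75 without its replicate 5. It was also 70, 76 and 76 without nintedanib replicate 4, 2 or 5.

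Of these 117, the IDs with the largest TGFb change and a mean of at least 50 normalized counts in the higher group are shown. The class was defined partly on the nintedanib libraries, which the comparisons with the other drugs share. ENSRNOG00000011946 had 8.74 to 29.5 normalized counts with TGFb and nintedanib (median 16.1), 73.6 to 145.6 with TGFb alone (median 126.7) and 15.9 to 42.3 in untreated slices (median 24.8). All 6 drug libraries lay below all 6 with TGFb alone and overlapped the untreated ones. The net log2 fold change was -0.55 (SE 0.31, adjusted p = 0.201), beside 2.20 with TGFb alone (SE 0.30, adjusted p = 8.47e-07), and the drug against TGFb alone gave -2.76 (SE 0.31, adjusted p = 4.99e-07). Nintedanib, at 17.7 ± 7.19, and sorafenib with TGFb, at 21.8 ± 3.10, did not differ past the test (log2 difference -0.30 for nintedanib over sorafenib, SE 0.31, adjusted p = 0.562). Nintedanib was below pirfenidone with TGFb, at 44.2 ± 13.4 (log2 difference -1.32 for nintedanib over pirfenidone, adjusted p = 0.000483).

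ENSRNOG00000005700 had 174.9 to 375 normalized counts with TGFb and nintedanib (median 333), 329 to 659.5 with TGFb alone (median 451) and 168 to 257 in untreated slices (median 213). The drug group overlapped both others. Its net log2 fold change of 0.46 did not pass (SE 0.21, adjusted p = 0.1), though it was called without nintedanib replicate 1 or 3 (adjusted p = 0.0405 and 0.0421), and its fall against TGFb alone (-0.72, SE 0.20, adjusted p = 0.0445) lost the call under 18 of 29 other settings. With nintedanib this ID averaged 292 ± 90.7 normalized counts, against 949.9 ± 112 with pirfenidone (log2 difference -1.71 for nintedanib over pirfenidone, SE 0.21, adjusted p = 4.12e-08). Nintedanib was also below sorafenib, at 543 ± 153 (log2 difference -0.90 for nintedanib over sorafenib, SE 0.20, adjusted p = 0.00507).

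Among the genes that TGFb lowered, ENSRNOG00000047393 had 9256 to 13293 normalized counts with TGFb and nintedanib (median 11415), 4867 to 8445 with TGFb alone (median 5684) and 11459 to 16847 in untreated slices (median 14527). All 6 drug libraries lay above all 6 with TGFb alone, and 3 of them fell below the untreated range. The log2 fold changes were -0.28 for the net comparison (SE 0.17, adjusted p = 0.246) and 0.90 for the drug against TGFb alone (SE 0.17, adjusted p = 0.00163). ENSRNOG00000029514 had 799 to 1141 normalized counts with TGFb and nintedanib (median 908), 233 to 713 with TGFb alone (median 445) and 948 to 1751 in untreated slices (median 1243). Its net log2 fold change was -0.51 (SE 0.27, adjusted p = 0.174). The rise against TGFb alone, 1.06 (SE 0.28, adjusted p = 0.0255), lost its call against a fold of 1.2 (adjusted p = 0.14), without replicate 2 or 5 with TGFb alone (adjusted p = 0.0849 and 0.0646), without nintedanib replicate 2 or 4 (0.0628 and 0.0579) and without the 3 libraries (0.275). At time 0 this ID stood at 5342 ± 1408 normalized counts, so every group at 72 was far below the slices before culture.

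In 2 genes both comparisons were called with opposite signs, raised by TGFb alone and lower than untreated with the drug. They fall outside the naming rule and were chosen after their values were seen. ENSRNOG00000017676 had 290 to 364 normalized counts with TGFb and nintedanib (median 337), 534 to 990 with TGFb alone (median 844) and 551 to 640 in untreated slices (median 572). All 6 drug libraries lay below every library of both other groups. Its log2 fold changes were -0.81 for the net comparison (SE 0.14, adjusted p = 2.69e-05) and 0.50 for TGFb alone (SE 0.13, adjusted p = 0.00476). ENSRNOG00000004810 had 177 to 225.9 normalized counts with TGFb and nintedanib (median 199.9), 274 to 489 with TGFb alone (median 433) and 231 to 278 in untreated slices (median 245). Its log2 fold changes were -0.32 for the net comparison (SE 0.09, adjusted p = 0.0109) and 0.69 for TGFb alone (SE 0.09, adjusted p = 6.54e-07). Against a fold of 1.2 the net call of ENSRNOG00000004810 (adjusted p = 0.48) and the TGFb call of ENSRNOG00000017676 (0.0886) were lost. Neither differed past the test between nintedanib and sorafenib (adjusted p = 0.145 for ENSRNOG00000017676 and 0.752 for ENSRNOG00000004810), whereas both were lower with nintedanib than with pirfenidone (log2 differences -1.16 and -0.52, adjusted p = 2.15e-08 and 2.06e-05). Both were chosen for their low nintedanib libraries, which these comparisons between drugs share. Over all genes, 54.6% were called between nintedanib and pirfenidone and 11% between nintedanib and sorafenib. Both IDs had stood far higher at time 0, at 11123 ± 1725 and 1822 ± 200.7 normalized counts (SD, n = 6).

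**Figure D3:**
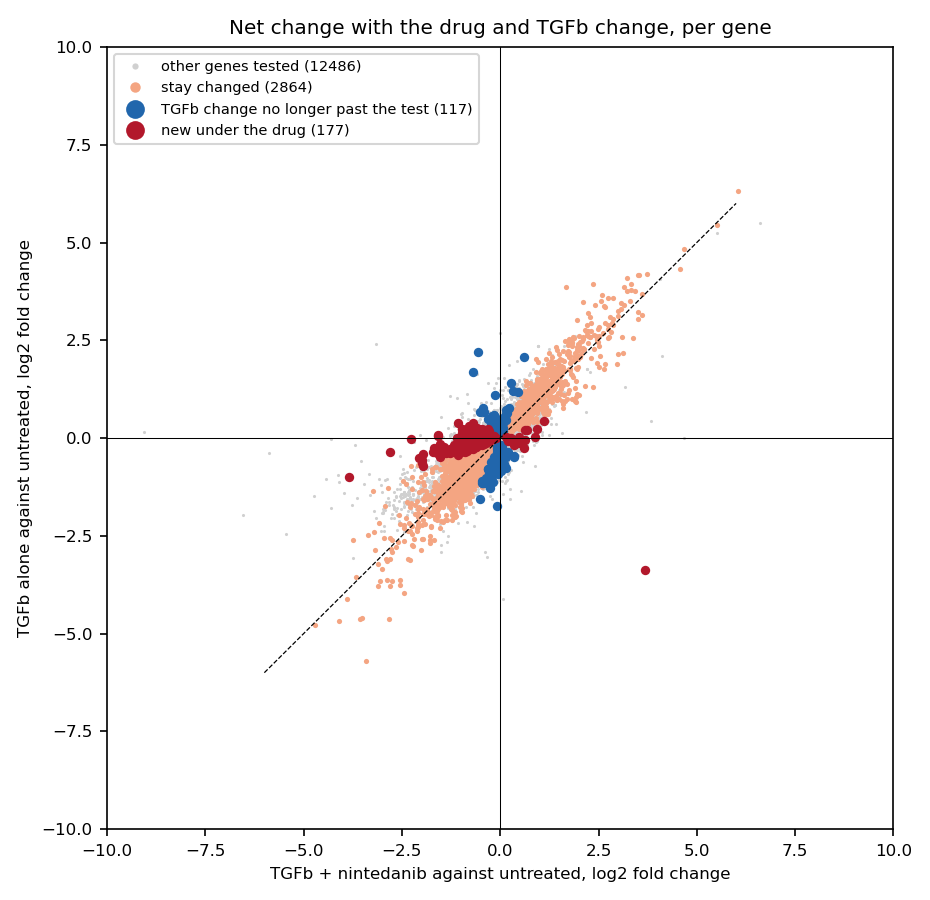
Log2 fold change of TGFb with nintedanib against untreated slices (horizontal) and of TGFb alone against untreated slices (vertical) for each of 15644 genes, with equal change on the dashed line. The 2864 genes that stayed changed run along that line, 177 genes new under the drug lie mostly left of 0 near the horizontal axis, and 117 genes whose TGFb change no longer passed the test lie near the vertical axis; both comparisons share the untreated libraries.

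What was new under the drug was asked among the 1271 net genes with no TGFb call (30.7% of the net genes). The absence of a TGFb call does not make a change new, so the drug against TGFb alone also had to be called in the same direction. This left 177 genes, 4.28% of the net genes, of which 158 were lower and 19 higher with TGFb and nintedanib. Over all genes, 2.21% were called lower and 0.882% higher in the drug comparison. For the other 1094 net genes neither step was called by itself. They had median log2 fold changes of 0.31 where they rose (445 genes) and -0.45 where they fell (649 genes), and 209 and 230 of these, in that order, had an unadjusted TGFb p under 0.05.

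The number of new genes depended on the libraries with TGFb alone. It was 92 without replicate 3 with TGFb alone, where 70 genes fell. Without its replicate 2 the number that fell was 104. Without the 3 libraries low on the second component the number of new genes was 43, of which 40 fell. In DESeq2, limma-voom and a fit of only the 18 libraries, 124 of the 177 were new each time, 108 lower and 16 higher. Of the 158 lowered genes, 29 had an unadjusted TGFb p under 0.05, and 106 had a TGFb log2 fold change below 0.

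The 158 new lowered genes had a median level of 670 normalized counts, beside 444 over all genes tested. These are levels of counts and do not rank genes by expression. Of the 158 genes, 151 were in the protein-coding table. Their median log2 fold change was -0.69 with TGFb and nintedanib and -0.07 with TGFb alone, each against untreated slices. At least 2-fold lower were 39 of them, and in 125 (79.1%) all 6 drug libraries lay below all 6 untreated ones, which held for 8.88% of all genes and 61.1% of all genes called lower. Library by library, their median log2 difference from the untreated mean was -0.74 to -0.55 with nintedanib, -0.25 to 0.12 with TGFb alone and -0.13 to 0.08 in untreated slices. Since the genes were chosen on these 18 libraries, the gap describes them and tests nothing.

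The libraries with the other drugs are in neither of the comparisons that define these genes, but they share the fit and so its filter, scaling and dispersions: with the 18 libraries alone 208 genes were new, of which 139 were among the 177. With sorafenib, another kinase inhibitor, the median of the 158 lay between -0.43 and -0.10 in its 6 libraries, below 0 in each. With pirfenidone, an anti-fibrotic compound of another class, it lay between -0.09 and 0.11. Against the same untreated libraries, 76 of the 158 were called lower with sorafenib (48.1%) and 0 higher, and over all genes 11.9% were called lower and 13.1% higher. With pirfenidone 40 were called lower (25.3%) and 34 higher (21.5%), and over all genes 26% in each direction. The 158 were chosen as lower than these same untreated libraries, so the shares over all genes are not what no change would give for them, and nothing is read from the gap. Compared directly, nintedanib and sorafenib differed in 71 of the 158, and nintedanib and pirfenidone in 132, beside 11% and 54.6% of all genes; these comparisons share the nintedanib libraries on which the 158 were chosen.

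**Figure D4:**
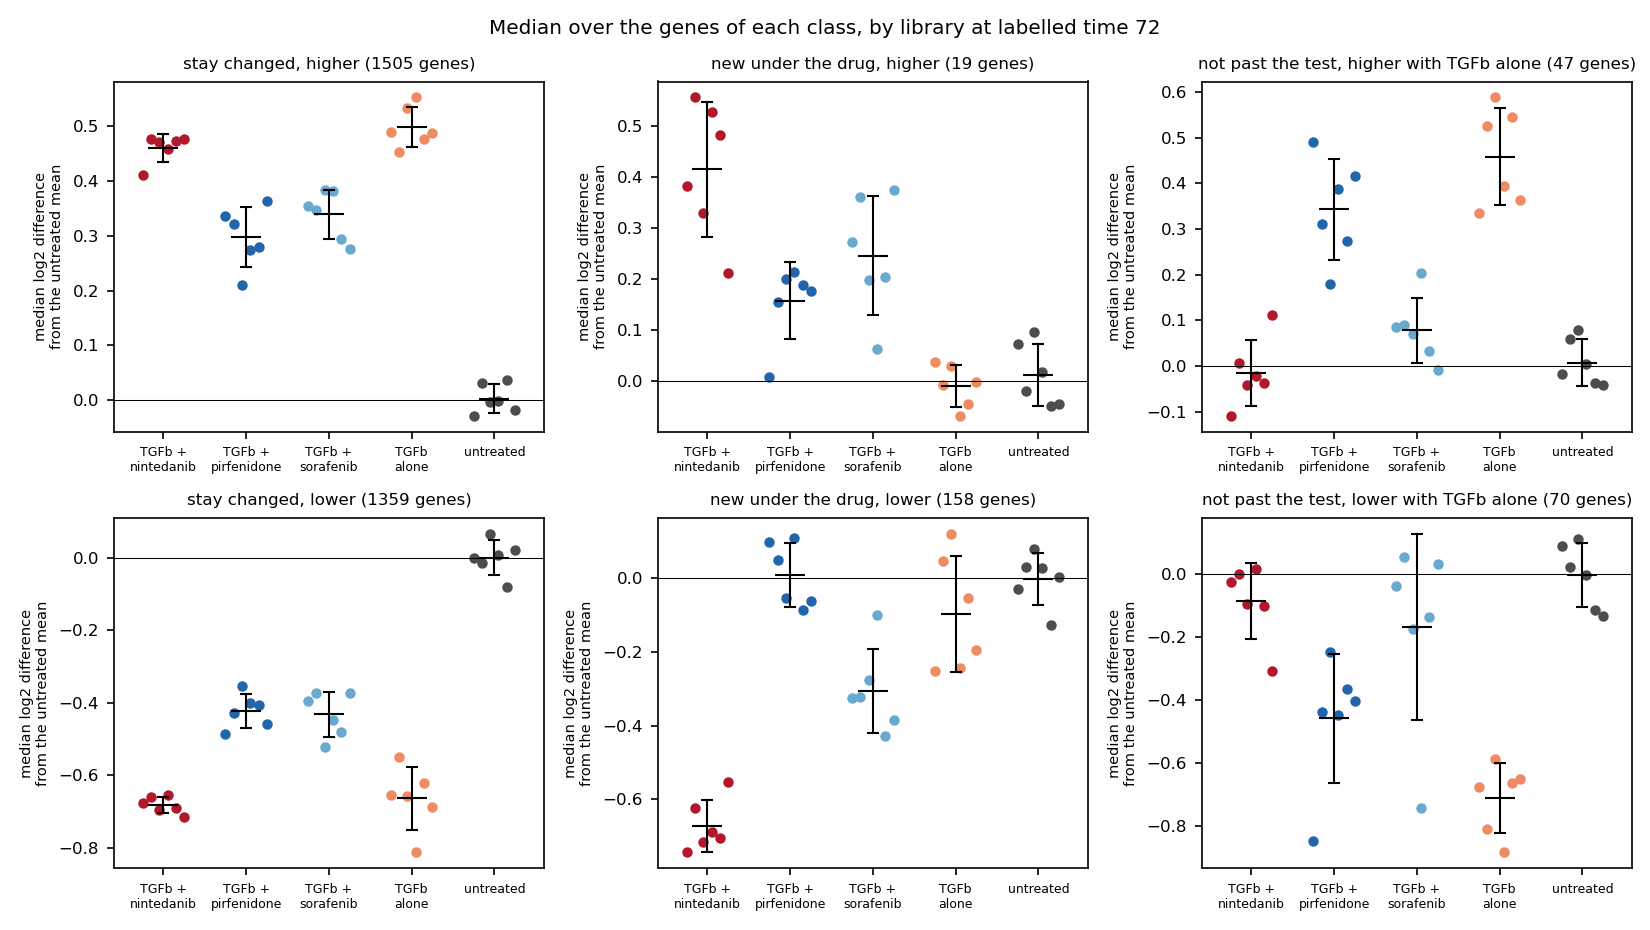
Median over the genes of a class of the log2 difference in normalized count (plus 1) from the mean of the untreated libraries, for each library (points; n = 6 per group) with mean and SD (black). In the genes new and lower under the drug, the nintedanib libraries lie at -0.74 to -0.55 and the sorafenib libraries at -0.43 to -0.10, the pirfenidone libraries at -0.09 to 0.11, those with TGFb alone at -0.25 to 0.12, overlapping those with sorafenib, and the untreated ones at -0.13 to 0.08; genes were chosen on the nintedanib, TGFb-alone and untreated libraries.

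Of the new genes with a mean of at least 50 normalized counts in the higher group, 145 lower and 18 higher, those with the largest net change are shown. They were chosen on their nintedanib libraries, which the direct comparisons with the other drugs share. ENSRNOG00000032332 had 0 to 8.56 normalized counts with TGFb and nintedanib (median 2.99), 9.27 to 64.9 with TGFb alone (median 20.6) and 34.1 to 99.1 in untreated slices (median 52.4). All 6 drug libraries lay below all 12 others, though narrowly below the lowest with TGFb alone. Against untreated slices its log2 fold change was -3.84 (SE 0.59, adjusted p = 7.40e-06) and the drug against TGFb alone gave -2.83 (SE 0.59, adjusted p = 0.00446). TGFb alone gave -1.0 (SE 0.49, adjusted p = 0.132), but that change was called by limma-voom (adjusted p = 0.0275) and without replicate 3 with TGFb alone (adjusted p = 0.0362), where this ID is then not new. It was also lower than untreated with pirfenidone (log2 fold change -2.91, adjusted p = 3.81e-05) and with sorafenib (-2.48, adjusted p = 0.000761), and the direct difference of nintedanib from either drug did not pass (adjusted p = 0.221 for pirfenidone and 0.144 for sorafenib). Without the 3 libraries the drug difference did not pass (adjusted p = 0.0901).

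ENSRNOG00000004265 had 2.42 to 13.4 normalized counts with TGFb and nintedanib (median 10.3), 31.1 to 73.3 with TGFb alone (median 40.0) and 38.2 to 75.9 in untreated slices (median 60.0). The drug group lay wholly below both others, which overlapped each other. The net log2 fold change was -2.80 (SE 0.45, adjusted p = 1.46e-05) and the difference from TGFb alone -2.44 (SE 0.45, adjusted p = 0.00124), and both calls held under all 29 other settings. Nintedanib averaged 8.64 ± 4.70 normalized counts, below sorafenib with TGFb at 26.3 ± 12.9 (log2 difference -1.61 for nintedanib over sorafenib, SE 0.45, adjusted p = 0.0209). Its difference from pirfenidone, at 16.5 ± 4.79, did not pass (log2 difference -0.94 for nintedanib over pirfenidone, SE 0.46, adjusted p = 0.0836). Against untreated slices it was lower with pirfenidone (-1.86, adjusted p = 0.000413) and with sorafenib (-1.19, adjusted p = 0.03), so both lowered IDs shown here were lower than untreated with each of the 3 drugs. Both IDs were higher in untreated slices at 72 than at time 0, by 2.27 on the log2 scale for ENSRNOG00000032332 (adjusted p = 0.000308) and 2.54 for ENSRNOG00000004265 (adjusted p = 8.20e-06), where 73.2% of all genes were called, and at time 0 they averaged 11.7 ± 7.49 and 10.4 ± 12.7 normalized counts.

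The 19 new genes that rose had a median net log2 fold change of 0.49. ENSRNOG00000002667 had 9239 to 14114 normalized counts with TGFb and nintedanib (median 12221), 6609 to 8481 with TGFb alone (median 7389) and 4309 to 6217 in untreated slices (median 5743). The 3 groups did not overlap. Its net log2 fold change was 1.12 (SE 0.17, adjusted p = 4.07e-06) and the difference from TGFb alone 0.70 (SE 0.16, adjusted p = 0.012). TGFb alone missed the threshold narrowly, at 0.42 (SE 0.16, adjusted p = 0.0541), and was called in the fit of the 18 libraries (adjusted p = 0.00403) and with DESeq2 (0.0436). With TGFb, nintedanib gave 12025 ± 1670 normalized counts and sorafenib 11076 ± 2741, and the difference did not pass the test (log2 difference 0.12 for nintedanib over sorafenib, SE 0.16, adjusted p = 0.675). Nintedanib exceeded pirfenidone, at 7361 ± 1667, by 0.71 on the log2 scale (SE 0.16, adjusted p = 0.000535).

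ENSRNOG00000026295 had 145.3 to 216 normalized counts with TGFb and nintedanib (median 179), 100.7 to 123 with TGFb alone (median 108) and 77.5 to 114.7 in untreated slices (median 91.7). All 6 drug libraries exceeded all 12 others. The net log2 fold change was 0.93 (SE 0.17, adjusted p = 7.06e-05), the difference from TGFb alone 0.71 (SE 0.17, adjusted p = 0.0108), and TGFb alone gave 0.22 (SE 0.17, adjusted p = 0.375). Nintedanib exceeded pirfenidone, at 93.0 ± 17.7 normalized counts, by 0.95 on the log2 scale (adjusted p = 1.80e-05), and did not differ past the test from sorafenib, at 170.7 ± 27.6 (log2 difference 0.07, SE 0.16, adjusted p = 0.819). Both risen IDs lost the drug call without the 3 libraries (adjusted p = 0.112 for ENSRNOG00000002667 and 0.101 for ENSRNOG00000026295) and against a fold of 1.2 (0.14 and 0.122). Both averaged more at time 0 than in untreated slices at 72, at 13677 ± 3389 and 259 ± 94.6 normalized counts. A further new gene had a net log2 fold change of 3.69, the largest among the 19, but 39.3 ± 58.0 normalized counts with TGFb and nintedanib, from 0 to 132.7, against 0.18 ± 0.44 with TGFb alone and 2.75 ± 2.84 in untreated slices.

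The genes called between the drug and TGFb alone were then split by their state against untreated slices. Of the 345 genes lower with TGFb and nintedanib than with TGFb alone, 255 (73.9%) were also called lower than in untreated slices, beside 13.9% of all genes. These were the 158 new genes, 95 that TGFb had already lowered and the 2 that crossed the untreated level. Of the 345 genes, 47 (13.6%) had been raised by TGFb and no longer passed the test, and 23 more had been raised and were still called higher than untreated. Of the 138 genes higher with the drug than with TGFb alone, 70 (50.7%) had been lowered by TGFb and no longer passed the test, 23 were still called lower than untreated, and 32 (23.2%) were called above the untreated level, beside 12.6% of all genes. The median net log2 fold change was -0.63 among the 345 and -0.01 among the 138. The drug comparison shares its nintedanib libraries with the net comparison and its TGFb-alone libraries with the TGFb comparison, so these shares are a description and the difference between the directions was not tested. When the 3 libraries were left out, 77 genes were lower, of which 66 were also called lower than untreated, and 23 were higher, of which 6 were called above untreated. The 345 became 173 without replicate 3 with TGFb alone and 229 without its replicate 2. The 138 became 80 without that replicate 2, 80 and 78 without nintedanib replicate 2 or 4, and 352 in the fit of the 18 libraries alone.

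**Figure D5:**
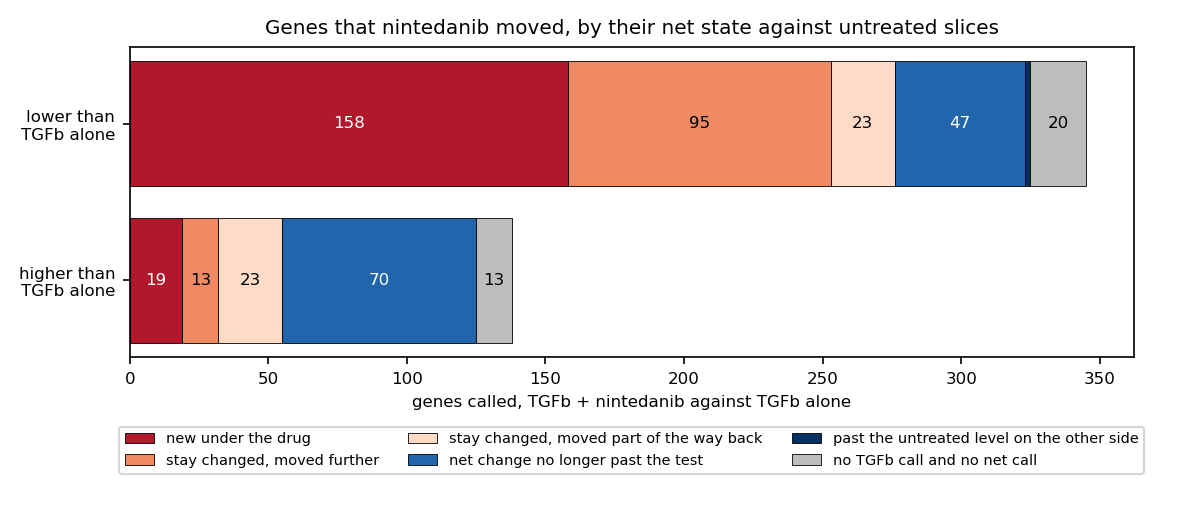
Number of genes called for TGFb with nintedanib against TGFb alone, 345 lower and 138 higher, split by their state against untreated slices. Of the genes lower with the drug 158 are new and 95 moved further from the untreated level, while of those higher with the drug 70 had a TGFb change that no longer passed the test.

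The net states of the 3 drugs can be set side by side, since each was compared with the same untreated libraries. With TGFb, nintedanib left 4137 genes called (26.4%), pirfenidone 8131 (52%) and sorafenib 3913 (25%), beside 4130 (26.4%) with TGFb alone. Changes of at least 2-fold numbered 1038 with nintedanib (6.64%), 1713 with pirfenidone (10.9%) and 691 with sorafenib (4.42%), beside 1041 with TGFb alone (6.65%). In the 1505 genes that stayed higher with nintedanib, the library medians were 0.41 to 0.48 on the log2 scale with nintedanib, 0.21 to 0.36 with pirfenidone, 0.28 to 0.38 with sorafenib and 0.45 to 0.55 with TGFb alone, relative to untreated slices. In the 1359 that stayed lower they were -0.72 to -0.66 with nintedanib, -0.49 to -0.35 with pirfenidone, -0.52 to -0.37 with sorafenib and -0.81 to -0.55 with TGFb alone. The genes were chosen for being changed with nintedanib and with TGFb alone, so the order of the groups is a description.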

How the data were processed

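Per the labels' protocols, slices gave total RNA (RNeasy kit in plates) that was depleted of ribosomal RNA and made into stranded libraries. The authors deposited expected counts per gene, unscaled; the submitters' processing notes name RSEM, edgeR and Rnor_6.0, while an aligner, a strand option or an annotation release is not given in the sources used. RSEM can divide reads between near-identical genes, so such counts are uncertain. The authors' second deposited table holds log2 CPM of 14984 genes that its title calls protein-coding. It equalled edgeR's TMM log2 CPM (prior count 0.25) to within 5e-14 and served only to mark coding genes.

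After rounding, edgeR 4.0.16 (R 4.3.3) was run on the counts as follows: filterByExpr (15644 of 32883 genes kept), TMM factors, 1 quasi-likelihood fit of all 36 libraries with a mean per group, glmQLFTest contrasts and Benjamini-Hochberg adjustment. SE is the absolute log2 fold change over the root of F. The code was tested on simulated data with 200 changed genes. Alternatives used DESeq2 1.42.0, limma 3.58.1, other scaling, filters and subsets. IDs were named by log2 fold change among called genes with a mean of at least 50 normalized counts in the higher group (groups not overlapping, for the net comparison), 2 per direction. The comparison, gene classes and lists were chosen with earlier results of these data known. The 28 gene lists and marker checks could not be run because 0 IDs matched a name. Replicate numbers were not taken to pair the libraries.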

Additional observations from a re-analysis of the deposited data

Results flagged for a closer look

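In 42 groups of 6 values (14 IDs in 3 groups) and 12 groups of library measures, 2 had a library far from the other 5; chance gives about 1 in 20. ENSRNOG00000011824 held 2680 normalized counts in replicate 3 with TGFb alone, and the next highest library held 1101. The net comparison does not use this library beyond the shared fit, and it called this ID under all 29 other settings (edgeR or other tool, highest adjusted p = 7.24e-07). The TGFb change and the drug difference of this ID do use the library and were not recomputed without it. ENSRNOG00000017676 held 639.8 normalized counts in untreated replicate 3, and the next highest untreated library held 582.9, while all 6 nintedanib libraries lay at 364 or below.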

How the results depend on the processing

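The numbers of genes called, stayed changed, new (all and lower) and no longer past the test were recomputed under 29 other settings. With no scaling factors 1240 genes rose and 77 were no longer past the test. Against a fold of 1.2 the net comparison called 1762 genes, 687 higher and 1075 lower; 1180 stayed changed, 60 were new (58 lower) and 16 TGFb genes were no longer past the test. At an adjusted p under 0.01, chosen after seeing the data, 2603 were called, 1180 higher and 1423 lower, 1789 stayed, 89 were new (84 lower) and 38 were no longer past the test. Without the 3 libraries low on the second component, also chosen after seeing the data, 43 were new (40 lower) and 16 no longer past the test. Leaving out 1 library at a time gave 3601 to 4176 net genes, 1691 to 1992 higher, 1903 to 2224 lower, 2527 to 2869 that stayed, 92 to 222 new, 70 to 202 new and lower, and 63 to 147 no longer past the test. In a fit of only the 18 libraries, 4400 were called, 3187 stayed, 208 were new and 174 were no longer past the test. With the replicate number as a block in that fit, 4650 were called, 3457 stayed, 204 were new and 180 were no longer past the test. Of 18 same-numbered pairs, 5 had correlated deviations over 0.1 (range -0.217 to 0.561), so the numbers were not taken to pair the libraries. Under the block the TGFb change of ENSRNOG00000032332 was called (adjusted p = 0.0451), which ends its place among the new genes. That of ENSRNOG00000002667 was called in the fit of the 18 libraries both with the block (0.00452) and without it (0.00403). Settings not listed stayed within 1.5 times of each count. Of the values of single IDs, 942 kept direction and side of the threshold, 36 lost a call, 8 gained one and 0 changed sign.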
